A study of Mus musculus with 6 samples.

Results

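The semaphorin, ephrin, slit and netrin families with their receptors were examined in RNA-seq data from the medial prefrontal cortex (mPFC) of mice that overexpressed the human long noncoding RNA *AP1AR-DT*. Members were the genes whose symbols belong to the Sema, Plxn, Nrp, Efn, Eph, Slit, Robo, Ntn or Unc5 families as listed in the deposited table. This gave 68 of the 52390 genes listed, and 67 of them were among the 21844 genes with enough counts to test. Only *Ntn5*, with 16 counts summed over all libraries, was not tested.

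The mice were wild-type C57BL/6 males, injected in the mPFC at 8 weeks of age with recombinant adeno-associated virus. The *AP1AR-DT* OE group (3 mice) received virus carrying *AP1AR-DT*, called AC109347.1 in the labels, driven by the neuronal promoter of human synapsin I. The control group (3 mice) received the same vector without an insert, so both groups carried virus and EGFP. RNA came from whole tissue. The labels name the tissue only as brain. The control libraries are called control 1, 2 and 3, and the OE libraries A, B and C, since their columns do not say which mouse they came from. The level of the human transgene itself was not analysed here.

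Semaphorins are secreted or membrane-bound proteins that steer growing axons, mostly as repellents, by binding plexins, with neuropilins as co-receptors for most of the secreted class 3. Ephrins and Eph receptor tyrosine kinases sit on opposing cells and signal in both directions, slits repel axons through Robo receptors, and netrins attract through Dcc or repel through Unc5 receptors. In the adult cortex members of these families are also known to act on dendritic spines, synapses and blood vessels.

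Library totals ranged from 42061721 to 54668294 counts. Several libraries stood apart in markers of other regions. Relative to the mean of all libraries, control 3 was higher in choroid plexus markers by 3.99 on the log2 scale, averaged over 10 markers, and in thalamic markers by 1.73. Hypothalamic markers were higher by 3.29 in control 2 and by 1.59 in control 3. Striatal markers deviated by 0.65, -1.26 and -0.92 in controls 1 to 3, and by 1.48, 0.02 and 0.04 in libraries A to C. *Slc17a7*, the vesicular glutamate transporter that defines cortical excitatory neurons, measured 28.2, 3.86 and 233 normalized CPM (counts brought to one library size with TMM factors) in controls 1 to 3, and 231, 463 and 87.2 in libraries A, B and C. This cortical marker was therefore nearly absent from control 2. *Slc32a1*, of the GABA interneuron list, was above *Slc17a7* in every library. It measured 679, 558 and 309 normalized CPM in controls 1 to 3, and 694, 741 and 789 in libraries A to C. Striatal markers were present in every library, with sums of 416 to 1540 normalized CPM in controls and 960 to 2710 in OE mice. The part of these differences in the results below was not tested, and the results that change when 1 library is left out are given with and without it. In bulk tissue, fewer cells of a type and less RNA per cell cannot be told apart.

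The first question was how many guidance genes differed between *AP1AR-DT* OE and control mice. Of the 67 tested, 11 were higher and 3 were lower in *AP1AR-DT* OE mice at unadjusted P under 0.05 and an absolute log2 fold change (log2FC) above 0.32 in edgeR's quasi-likelihood test. The higher genes were *Plxnd1*, *Sema5b*, *Unc5a*, *Robo4*, *Epha10*, *Efna3*, *Sema6b*, *Plxna2*, *Efnb1*, *Sema3f* and *Efna2*, and the lower genes were *Sema3d*, *Unc5c* and *Sema5a*. The higher genes made up 16.4% of the members, beside 5.1% of all genes tested, and the lower genes 4.48%, beside 7.15% of all genes. None of the 67 had an adjusted P under 0.05 in edgeR, where the lowest was 0.295, beside 6 of all 21844 genes. An unadjusted P under 0.05 in edgeR was found for 15 members, beside 3304 of all genes. In DESeq2, 2 members had an adjusted P under 0.05, *Sema6b* (adjusted P = 0.0302) and *Plxnd1* (adjusted P = 0.0345), beside 308 of the 21844 genes.

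The median log2FC of the members was 0.07, beside -0.01 for all genes tested. Values of the groups did not overlap, with all OE mice above all controls, in 13 members, and with all OE mice below in 3, beside 10.4% and 12% of all genes. Of the 14 genes past the thresholds, 12 had no overlap, and the exceptions were *Plxnd1* and *Unc5c*. An exact permutation test of 3 against 3 mice cannot give a two-sided P below 0.1, which each gene without overlap reached. Leaving out library A left 5 higher and 0 lower genes, leaving out library B 6 and 0, and leaving out library C 9 and 7. Without control 1 the counts were 11 and 6, without control 2 they were 13 and 4, and without control 3 they were 9 and 2. *Epha10*, *Sema5b* and *Sema6b* stayed past the thresholds whichever library was left out. Of the 53 members tested and not called, 21 passed the thresholds when 1 library was left out, and these are named with their values below. The share of all genes that gained or lost a call in the same fits was not counted. These counts therefore do not show whether guidance genes differed from other genes in this.

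**Figure D1:**
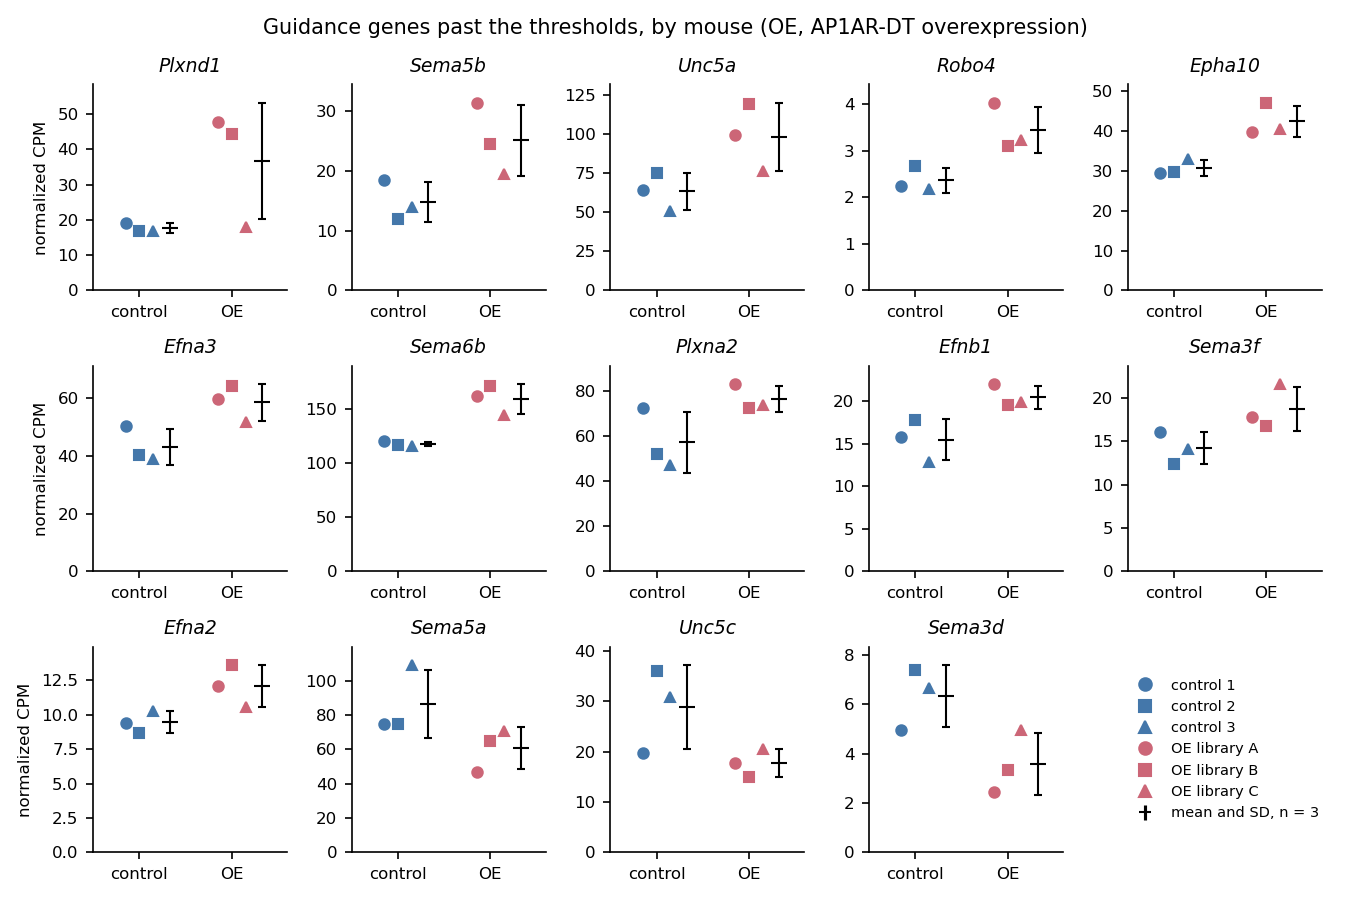
Normalized CPM of the 14 guidance genes past the thresholds in each of the 6 libraries (vertical axes start at 0), with the mean and SD of each group (n = 3) as black bars. Controls and OE mice are separate in all panels except *Plxnd1*, where library C lies among the controls, and *Unc5c*, where control 1 lies among the OE mice.

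GC content moved with the direction of change. The longest transcripts of the 11 higher genes held 49.7 to 63.5% GC and those of the 3 lower genes 39.2 to 45.9%. Guidance genes as a whole were GC rich, with a median of 56.1%, beside 49.4% for all genes tested. In the upper 5 GC deciles of all genes, 11 of 48 members were higher (22.9%, beside 8.9% of all genes there) and 0 were lower (beside 2.32% of all genes there). Most of these 48 lay in the top deciles, where more of all genes were higher. In decile 9, 1 of 19 members was higher, beside 10.5% of all genes there. In decile 10, the most GC rich, 8 of 17 were, beside 17.5%. In the lower 5 deciles, 0 of 19 members were higher (beside 1.29% of all genes there) and 3 were lower (15.8%, beside 12%). After a smooth correction for GC content in each library, 3 members were higher (2.86% of all genes were) and 3 were lower (4.34% of all genes were). *Plxna2* (log2FC 0.41), *Plxnd1* (0.78) and *Sema5b* (0.52) remained higher and *Unc5c* (-0.55) remained lower. The other lower genes after correction were the plexins *Plxnb2* (-0.47) and *Plxnb3* (-0.46). The call was lost for *Sema6b* (0.12), *Efna2* (0.14), *Sema3f* (0.20), *Efnb1* (0.20), *Epha10* (0.24), *Efna3* (0.28), *Unc5a* (0.32), *Robo4* (0.41), *Sema5a* (-0.39) and *Sema3d* (-0.54). The median log2FC of the members became -0.03.

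**Figure D2:**
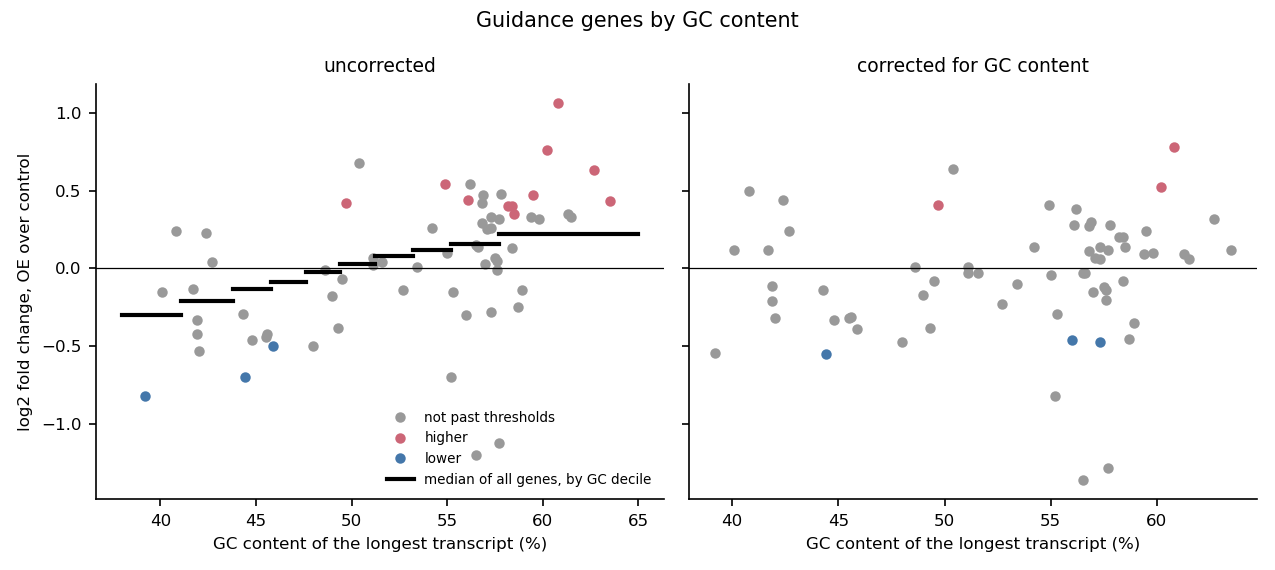
Log2 fold change of each tested guidance gene, OE over control, against the GC content of its longest transcript (percent), before (left) and after (right) the GC correction. In the left panel the median of all genes (black bars, one for each GC decile) climbs with GC content, the 3 lower members lie below 46% GC and the 11 higher members above 49%.

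**Figure D3:**
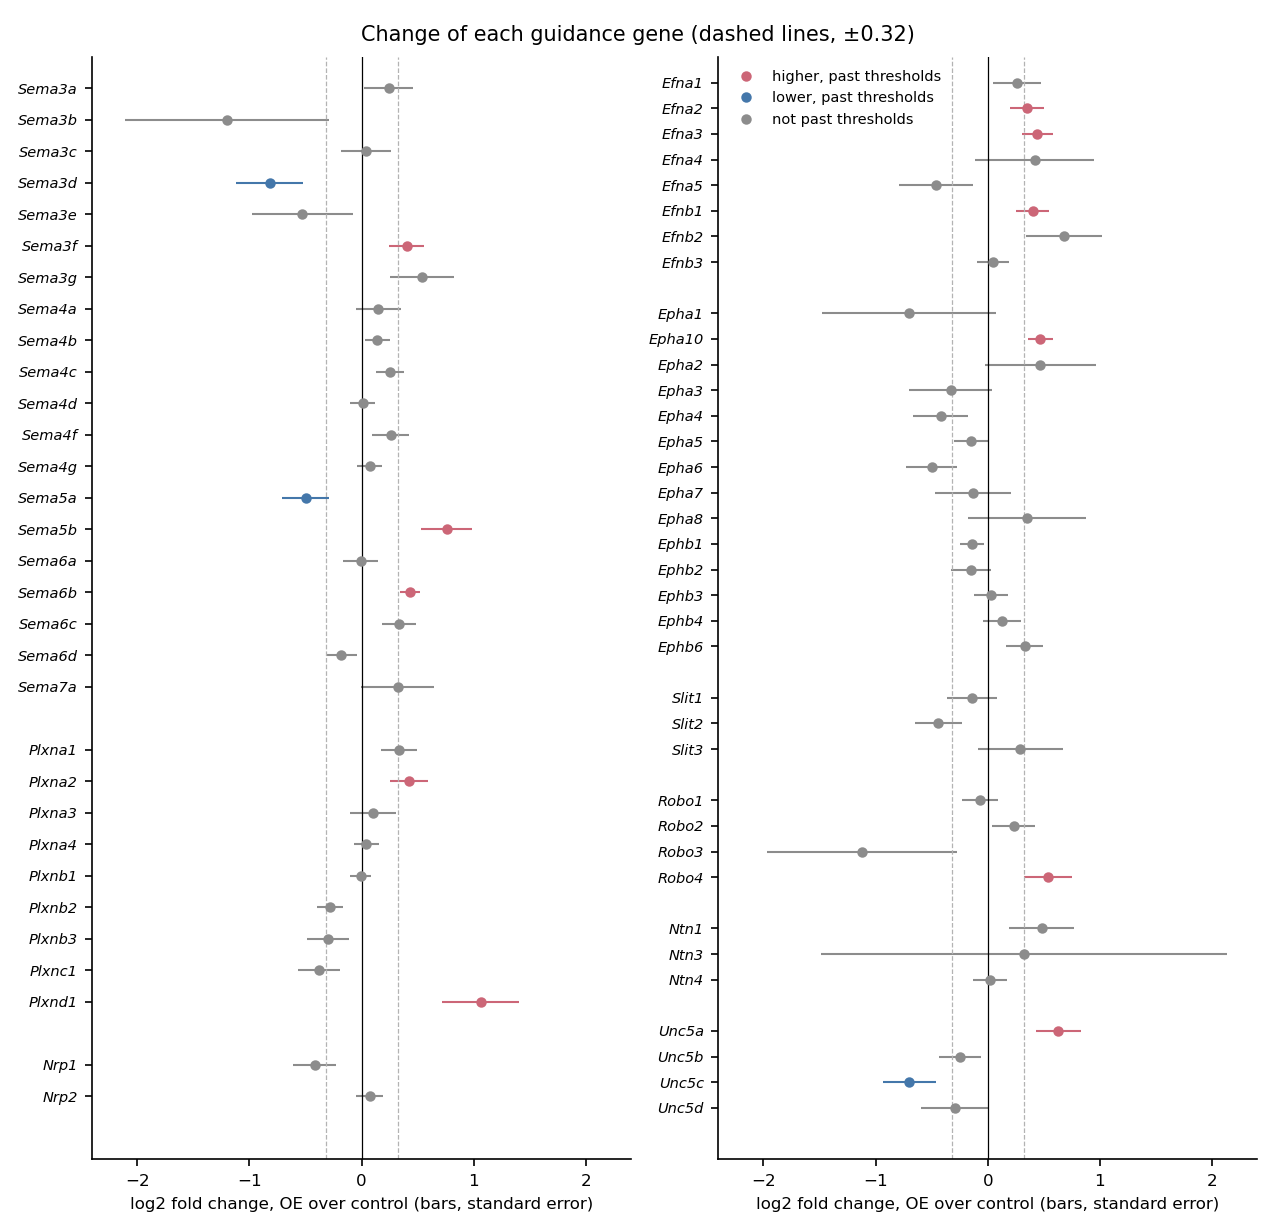
Log2 fold change of the 67 tested guidance genes, OE over control, with standard errors from edgeR, in order of family. The dashed lines mark 0.32 in either direction. The 11 higher genes (red) are spread over 6 of the 9 families, and the long bar of *Ntn3* comes with 0 counts in 1 library of each group.

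The class 3 semaphorins are secreted ligands, and 1 of 7 was higher and 1 was lower. *Sema3f*, a repellent that acts through neuropilin 2, measured 16.1, 12.4 and 14.1 normalized CPM in controls and 17.8, 16.8 and 21.6 in libraries A to C. All OE mice were above all controls, by 0.40 on the log2 scale (SE 0.156, edgeR adjusted P = 0.314, range over 14 fits 0.233 to 0.725). The call was lost without control 2, control 3, library A or library C, with log2FC from 0.29 to 0.43. *Sema3d*, a class 3 ligand of low level here, measured 4.94, 7.39 and 6.65 normalized CPM in controls and 2.45, 3.34 and 4.94 in OE mice. Library C and control 1 were nearly equal, and the fitted difference was -0.82 (SE 0.296, edgeR adjusted P = 0.297, range 0.156 to 0.661). Without control 2, control 3, library A or library B the call was lost, with log2FC from -0.78 to -0.61.

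*Sema3g*, a class 3 ligand made by endothelial cells, showed no overlap but missed the threshold with all libraries. It measured 4.94, 4.26 and 2.34 normalized CPM in controls and 5.37, 6.05 and 5.39 in OE mice, a log2FC of 0.54 (SE 0.284, edgeR adjusted P = 0.398). It passed without control 1, at 0.77, and was 0.30 without control 3. *Sema3a*, the classical neuropilin 1 ligand, had a log2FC of 0.24 (adjusted P = 0.628), *Sema3c* one of 0.04 (adjusted P = 0.948) and *Sema3e*, the direct ligand of plexin D1, one of -0.53 (adjusted P = 0.594). None of these 3 passed the thresholds, and their groups overlapped. *Sema3e* depended on single controls, since it was -0.87 and past the thresholds without control 2, and -0.01 without control 3.

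Of the 6 class 4 semaphorins, which are membrane-bound ligands, none passed the thresholds. Their log2FC lay between 0.01 for *Sema4d*, the ligand of plexin B1, and 0.26 for *Sema4f*. *Sema4c* was higher in all OE mice, with 12.6, 12.7 and 11.9 normalized CPM in controls and 13.4, 14.6 and 16.1 in OE mice, but its log2FC was 0.25 (adjusted P = 0.391). Without control 2, *Sema4a* and *Sema4f* passed, with log2FC moving from 0.15 to 0.41 and from 0.26 to 0.40.

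The class 5 semaphorins, membrane proteins with thrombospondin repeats, had calls in opposite directions. *Sema5a* measured 74.8, 74.9 and 109 normalized CPM in controls and 46.9, 65 and 70.7 in OE mice, while *Sema5b* measured 18.4, 11.9 and 14 in controls and 31.3, 24.4 and 19.5 in OE mice. Neither gene's groups overlapped. The log2FC of *Sema5a* was -0.50 (SE 0.207, edgeR adjusted P = 0.323, range 0.184 to 0.661) and that of *Sema5b* was 0.76 (SE 0.227, edgeR adjusted P = 0.295, range 0.0541 to 0.661). Without control 3, the highest *Sema5a* library, its log2FC was -0.29. It was -0.34 without library A and -0.55 without library B, and the call was lost in each case, as it was with library totals in place of TMM factors. *Sema5b* kept its call in all 13 alternative fits, with log2FC from 0.57 to 0.96 when 1 library was left out.

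These paralogs also differed in base composition. The longest *Sema5a* transcript held 45.9% GC and that of *Sema5b* 60.2%. In the coding part the values were 53.6% and 61.0%, and in the noncoding part 42.6% and 58.1%. After GC correction the log2FC of *Sema5a* was -0.39, no longer past the thresholds, and that of *Sema5b* was 0.52, still past them. The call of *Sema5a* depended on how GC content was taken. With mean GC over all transcripts, a correction chosen after seeing the data, *Sema5a* was -0.54 and *Sema5b* 0.55, both past the thresholds. Their promoters, by contrast, were alike in GC content, 71.3% for *Sema5a* (chr15:32244563-32244862, plus strand) and 73.0% for *Sema5b* (chr16:35541112-35541411, plus strand), beside a median of 52.7% over all RefSeq promoter windows. They are shown because the calls of the paralogs in these data had opposite directions. The part of the promoters in this was not tested. Each run holds 250 bases before and 50 after the start in RefSeq on GRCm38.p6, 5′ to 3′, with CpG dinucleotides in capitals, 23 in *Sema5a* and 27 in *Sema5b*.
Sema5a: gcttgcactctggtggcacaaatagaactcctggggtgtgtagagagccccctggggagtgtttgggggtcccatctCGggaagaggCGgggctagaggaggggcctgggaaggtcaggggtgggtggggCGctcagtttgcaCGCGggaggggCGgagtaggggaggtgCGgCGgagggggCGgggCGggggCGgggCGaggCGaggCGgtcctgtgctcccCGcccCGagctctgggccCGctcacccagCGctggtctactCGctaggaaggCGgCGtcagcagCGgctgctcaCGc
Sema5b: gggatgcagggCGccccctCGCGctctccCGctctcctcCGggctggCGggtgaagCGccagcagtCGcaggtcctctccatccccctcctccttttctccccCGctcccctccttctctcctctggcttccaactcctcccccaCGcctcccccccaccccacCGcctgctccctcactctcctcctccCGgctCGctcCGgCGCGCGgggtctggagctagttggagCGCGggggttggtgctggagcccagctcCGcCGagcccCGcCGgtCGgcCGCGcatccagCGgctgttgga

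Of the 4 class 6 semaphorins, transmembrane ligands of the class A plexins, *Sema6b* alone passed the thresholds. It was the highest semaphorin per length of exon, at 34.9 normalized CPM per kb over all libraries, and the second of all members. It measured 120, 117 and 116 normalized CPM in controls, which were close together, and 162, 171 and 144 in OE mice. The log2FC was 0.43 (SE 0.0903, edgeR adjusted P = 0.295, range 0.0302 to 0.661), with the lowest unadjusted P of the members. *Sema6b* also had the most GC-rich transcript of the higher genes, 63.5%, and after GC correction its log2FC was 0.12, no longer past the thresholds. *Sema6a* had a log2FC of -0.01 (adjusted P = 0.973), *Sema6c* one of 0.33 (adjusted P = 0.351) and *Sema6d* one of -0.18 (adjusted P = 0.549). The membrane-anchored *Sema7a* had a log2FC of 0.32 (adjusted P = 0.663). *Sema6c* passed without control 2, at 0.49, and *Sema7a* without control 3, at 0.77, while *Sema7a* was 0.10 without control 2.

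Among the 9 plexins, the signalling receptors of semaphorins, 2 were higher. *Plxnd1*, receptor of *Sema3e* in neurons and endothelium, showed the largest log2FC of the members past the thresholds. It measured 19.2, 16.8 and 16.9 normalized CPM in controls, and 47.8, 44.4 and 17.9 in OE mice. Libraries A and B were over all controls, whereas library C lay within their range. The log2FC was 1.06 (SE 0.34, edgeR adjusted P = 0.295, range 0.0345 to 0.661), with an exact permutation P of 0.2. It was 0.82 without library A and 0.90 without library B, and lost the call in both cases.

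*Plxna2*, a receptor of the class 6 semaphorins, measured 72.3, 52.1 and 47.1 normalized CPM in controls and 83.0, 72.5 and 73.6 in OE mice. Control 1 nearly reached library B. The log2FC was 0.42 (SE 0.169, edgeR adjusted P = 0.319, range 0.186 to 0.661), and 0.41 after GC correction, still past the thresholds. Its transcript, at 49.7% GC, lay near the median of all genes. Its call was lost without control 2, control 3 or any of the OE libraries, with log2FC from 0.31 to 0.46. *Plxna1*, the highest plexin per length at 13.6 normalized CPM per kb, measured 117, 128 and 83.3 normalized CPM in controls and 128, 143 and 142 in OE mice. Its log2FC was 0.33 (SE 0.162, edgeR adjusted P = 0.376). It passed in DESeq2, at 0.34, and without control 2, at 0.47, and was 0.18 without control 3. Of its exons, 10.7% overlap the gene *Gm26811*, from which its reads may not be separable as use of strand is not stated. *Plxna3* had a log2FC of 0.10, or 0.38 and past the thresholds without control 2, and *Plxna4* one of 0.04.

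The class B plexins did not pass the thresholds before GC correction with all libraries. *Plxnb2* measured 75.8, 84.4 and 90.0 normalized CPM in controls and 60.5, 72.3 and 72.8 in OE mice, without overlap. Its log2FC of -0.28 (SE 0.114, edgeR adjusted P = 0.319) was under the limit of 0.32, and its transcript is GC rich at 57.3%. *Plxnb3* had a log2FC of -0.30 (adjusted P = 0.47) and *Plxnb1* one of -0.01 (adjusted P = 0.954). *Plxnc1*, receptor of *Sema7a*, had a log2FC of -0.38 (adjusted P = 0.37). Without control 1, *Plxnb2* passed at -0.35 and *Plxnb3* at -0.43. *Plxnc1* passed without control 3, at -0.50, and without library C, at -0.51, and was -0.19 without control 2.

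Neither neuropilin passed the thresholds. *Nrp2*, the co-receptor for *Sema3f* and the higher of the pair per length at 7.78 normalized CPM per kb, measured 93.3, 97.1 and 79.8 normalized CPM in controls and 100, 82.1 and 100 in OE mice. The groups overlapped, with a log2FC of 0.07 (SE 0.121, edgeR adjusted P = 0.82). *Nrp1*, the co-receptor for *Sema3a*, had a log2FC of -0.42 (SE 0.195, adjusted P = 0.352), and passed without library C, at -0.64.

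**Figure D4:**
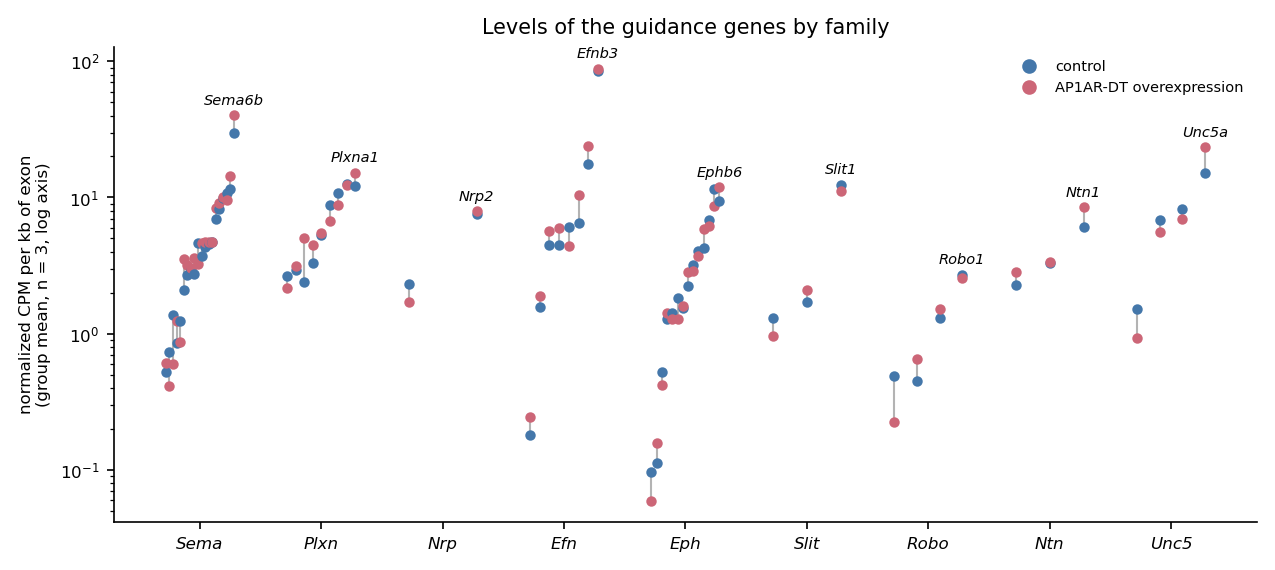
Mean level of each guidance gene in control (blue) and OE (red) mice, in normalized CPM per kb of exon on a log axis, ordered within each family by level. The name of the highest gene of each family is written above it, and *Efnb3* stands above all others.

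Ephrins, the ligands of Eph receptors, had the largest share of higher genes of the 9 families, with 3 of 8 higher and 0 lower (37.5%, beside 5.1% of all genes). After GC correction 0 of 8 were higher. *Efna3*, a GPI-anchored ephrin, measured 50.2, 40.2 and 38.8 normalized CPM in controls and 59.6, 64.1 and 51.7 in OE mice. Library C was only just above control 1. Its log2FC was 0.44 (SE 0.138, edgeR adjusted P = 0.295, range 0.113 to 0.661), 0.37 without library B and 0.28 after GC correction, where the call was lost in both cases. Of its exons, 14.1% overlap the gene *Gm15998*, so some of its reads may not be separable.

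*Efnb1*, a transmembrane ephrin, measured 15.8, 17.8 and 12.9 normalized CPM in controls and 22.0, 19.5 and 19.9 in OE mice. The groups were apart, with a log2FC of 0.40 (SE 0.147, edgeR adjusted P = 0.30, range 0.197 to 0.699). Without control 1, control 3 or library A it missed the threshold, with log2FC from 0.30 to 0.42, and after GC correction, at 0.20. *Efna2*, also GPI-anchored, measured 9.39, 8.70 and 10.3 normalized CPM in controls and 12.1, 13.6 and 10.6 in OE mice. Control 3 and library C lay close together. The log2FC of 0.35 (SE 0.149, edgeR adjusted P = 0.329, range 0.243 to 0.727) just passed. Without control 1, control 2, library A or library B it was 0.26 to 0.35 and the call was lost, as it was in DESeq2, with counts divided by 4 and after GC correction, at 0.14.

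*Efnb3*, a transmembrane ephrin, was the most abundant guidance gene per length, at 87.0 normalized CPM per kb. It measured 301, 295 and 222 normalized CPM in controls and 264, 265 and 315 in OE mice, in overlapping ranges (log2FC 0.05, SE 0.142, edgeR adjusted P = 0.895). *Efnb2*, which also marks arteries, measured 68.6, 38 and 26.7 in controls and 87.4, 66.2 and 59.4 in OE mice. Control 1 lay among the OE mice, and the log2FC of 0.68 (SE 0.336, adjusted P = 0.38) did not pass. It passed in DESeq2, at 0.69, and without control 1, at 1.13, and was 0.43 without control 3. *Efna1* had a log2FC of 0.26 (adjusted P = 0.576), *Efna4*, at 103 counts in all and with 10.5% of its exons shared with *4731419I09Rik*, one of 0.42 (adjusted P = 0.725), and *Efna5* one of -0.46 (adjusted P = 0.522). *Efna5* passed without library C, at -0.79, and was -0.18 without control 2.

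Of the 14 Eph receptors 1 was higher and 0 were lower, beside 5.1% and 7.15% of all genes. *Epha10*, an Eph receptor without kinase activity, measured 29.5, 29.7 and 33 normalized CPM in controls and 39.8, 46.9 and 40.5 in OE mice. The groups were well apart, with a log2FC of 0.47 (SE 0.11, edgeR adjusted P = 0.295, range 0.0566 to 0.661). When 1 library was left out the log2FC was 0.39 to 0.53. Its transcript held 59.5% GC, and after GC correction the log2FC was 0.24, which is under the limit of 0.32.

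The other class A receptors had log2FC from -0.70 for *Epha1* to 0.47 for *Epha2*, both of low level. *Epha4*, a receptor on dendritic spines and the highest of the class per length, had a log2FC of -0.42 (adjusted P = 0.432). The log2FC of *Epha7* was -0.13 (adjusted P = 0.879), that of *Epha5* -0.15 (adjusted P = 0.649), that of *Epha3* -0.33 (adjusted P = 0.69) and that of *Epha6* -0.50 (adjusted P = 0.345). Without control 2, *Epha4* passed at -0.62 and *Epha6* at -0.69, whereas *Epha4* was -0.12 without control 3. *Ephb6*, a further receptor without kinase activity, was the highest Eph gene per length at 10.7 normalized CPM per kb. It measured 38.2, 34.2 and 35.0 normalized CPM in controls and 44.6, 54.9 and 35.3 in OE mice, where library C was among the controls (log2FC 0.33, SE 0.165, edgeR adjusted P = 0.383). It passed without library C, at 0.49, and was 0.16 without library B. The other class B receptors lay between -0.15 and 0.13, and none passed the thresholds.

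None of the 3 slits passed the thresholds with all libraries. *Slit1*, the slit with the highest level per length at 11.8 normalized CPM per kb, measured 60.1, 94.9 and 65.2 normalized CPM in controls and 51.0, 68.5 and 79.9 in OE mice. These ranges overlapped (log2FC -0.14, SE 0.223, edgeR adjusted P = 0.784). *Slit2* had a log2FC of -0.44 (adjusted P = 0.361) and *Slit3* one of 0.29 (adjusted P = 0.735). *Slit2* passed in DESeq2, at -0.43, and without control 1 or library C, at -0.56 in both, and was -0.21 without control 2.

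Of the 4 Robo receptors, *Robo4* was higher. *Robo4* is expressed by endothelial cells rather than neurons, and measured 2.24, 2.67 and 2.18 normalized CPM in controls and 4.02, 3.10 and 3.22 in OE mice. The groups were apart, with a log2FC of 0.54 (SE 0.215, edgeR adjusted P = 0.316, range 0.275 to 0.661). It missed the threshold without control 1, control 3, library A or library C, with log2FC from 0.42 to 0.60, and in DESeq2. The summed level of 10 endothelial and pericyte markers was 140 to 158 normalized CPM in controls and 159 to 203 in OE mice, so the groups nearly touched. Of the 10 markers 2 were higher, beside 5.1% of all genes, and none was at 0 in all libraries. The markers were not alike. *Cldn5* measured 17.2, 19.5 and 24.1 in controls and 34.5, 42.1 and 27.0 in OE mice. *Rgs5* overlapped, with 29.1, 35.7 and 35.2 in controls and 30.8, 34.4 and 34.3 in OE mice. The part of these cells in the values of *Robo4*, and of *Plxnd1* and *Sema3g*, was not tested. *Robo1*, the highest Robo gene per length at 2.64 normalized CPM per kb, measured 50.7, 39.5 and 44.2 normalized CPM in controls and 51.8, 37.3 and 38.4 in OE mice (log2FC -0.07, SE 0.162, edgeR adjusted P = 0.851). *Robo2* had a log2FC of 0.23 (adjusted P = 0.592), which was 0.43 and past the thresholds without control 3, and 0.06 without control 2.

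The 3 netrins tested did not pass the thresholds with all libraries. *Ntn1*, the founding secreted netrin and the highest per length at 7.26 normalized CPM per kb, measured 56.2, 30.7 and 27.3 normalized CPM in controls and 65.8, 45.6 and 47.8 in OE mice. Control 1 lay within the OE range (log2FC 0.48, SE 0.291, edgeR adjusted P = 0.455). Without control 1 the log2FC was 0.87 and passed the thresholds, and without control 3 or library A it was 0.30. *Ntn4* had a log2FC of 0.02 (adjusted P = 0.966). *Dcc*, the attractive netrin receptor, measured 25.8 ± 2.99 normalized CPM in controls and 24.8 ± 5.02 in OE mice (SD, n = 3 each), a log2FC of -0.06 by edgeR (adjusted P = 0.896).

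The repulsive netrin receptors again held a pair with opposite calls. *Unc5a*, the highest of the 4 per length at 19.3 normalized CPM per kb, measured 64.1, 74.8 and 51.0 normalized CPM in controls and 98.9, 119 and 76.0 in OE mice. Library C was just above control 2, and the log2FC was 0.63 (SE 0.199, edgeR adjusted P = 0.295, range 0.0609 to 0.661), or 0.47 without library B, where the call was lost. *Unc5c* measured 19.7, 36.0 and 30.8 normalized CPM in controls and 17.7, 14.9 and 20.6 in OE mice. Control 1 lay below library C, so the groups overlapped. The log2FC was -0.70 (SE 0.236, edgeR adjusted P = 0.295, range 0.095 to 0.661), with an exact permutation P of 0.2. Without control 2, control 3, library A or library B it was -0.70 to -0.50 and the call was lost. *Unc5b* had a log2FC of -0.25 (adjusted P = 0.549) and *Unc5d* one of -0.29 (adjusted P = 0.669). *Unc5d* passed without control 3, at -0.54, and was 0.05 without control 2.

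As in the class 5 semaphorins, the higher paralog was the GC-rich one, with 62.7% in *Unc5a* and 44.4% in *Unc5c*. The noncoding part differed most, at 64.9% and 41.1%, and the coding part held 61.6% and 52.3%. After GC correction the log2FC of *Unc5a* was 0.32, no longer past the thresholds, and that of *Unc5c* was -0.55, still past them. Their promoters held 78.3% GC and 37 CpG in *Unc5a* (chr13:54949161-54949460, plus strand) and 68.3% GC and 24 CpG in *Unc5c* (chr3:141465314-141465613, plus strand). They are shown, as the class 5 pair above, from RefSeq on GRCm38.p6 with CpG in capitals.
Unc5a: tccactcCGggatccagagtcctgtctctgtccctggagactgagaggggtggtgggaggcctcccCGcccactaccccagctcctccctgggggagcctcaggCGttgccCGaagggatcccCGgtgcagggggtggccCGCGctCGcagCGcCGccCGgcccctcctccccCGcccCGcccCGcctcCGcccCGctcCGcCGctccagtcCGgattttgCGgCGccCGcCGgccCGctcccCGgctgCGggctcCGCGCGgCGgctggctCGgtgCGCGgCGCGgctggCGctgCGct
Unc5c: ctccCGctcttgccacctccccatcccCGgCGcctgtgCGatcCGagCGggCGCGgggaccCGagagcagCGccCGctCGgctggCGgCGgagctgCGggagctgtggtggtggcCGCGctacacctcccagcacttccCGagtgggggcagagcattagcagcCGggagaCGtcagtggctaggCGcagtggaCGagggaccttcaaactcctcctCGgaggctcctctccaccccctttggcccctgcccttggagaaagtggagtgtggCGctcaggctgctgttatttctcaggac

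Some guidance genes varied more between mice of a group than between groups. *Sema3b*, a secreted semaphorin, measured 16.2 normalized CPM in control 3 and 1.03 to 3.51 in the other 5 libraries. *Robo3*, known from commissural axons, measured 8.09 in control 3 and 0.944 to 1.98 in the others. *Epha1* measured 0.741 in control 3 and 0.132 to 0.362 in the others. All 3 were thus highest in the library with raised choroid plexus and thalamic markers, and none passed the thresholds, with log2FC of -1.20 (adjusted P = 0.546), -1.12 (adjusted P = 0.543) and -0.70 (adjusted P = 0.685). Without control 3 the fitted differences turned positive, to 0.75, 0.64 and 0.25.

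*Epha8* measured 22.5 normalized CPM in library A, where striatal markers were 1.48 above the mean of all libraries on the log2 scale, and 4.64 in control 2, where they were 1.26 below it. The other libraries lay between 7.66 and 15.5, and the log2FC was 0.35 (adjusted P = 0.775), or -0.24 without library A and 0.77 without control 3. *Ntn3* was listed with 0 counts in control 2 and in library A, while the other 4 libraries held 773 to 1253 counts. Across all members, control 3 held the lowest value in 23 of 67 (34.3%, beside 20.5% of all genes) and library A the highest in 17 (25.4%, beside 14.8%).

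**Figure D5:**
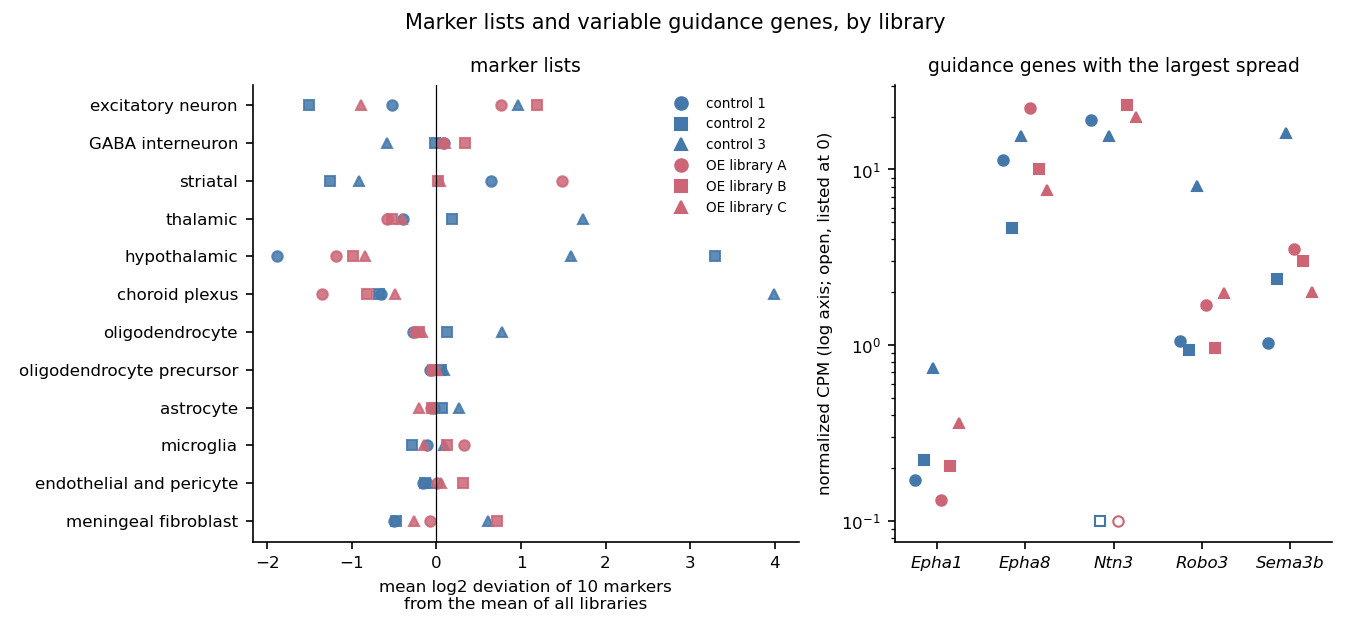
Left, mean log2 deviation of each list of 10 markers from the mean of all libraries, by library. Right, normalized CPM (log axis) of the 5 guidance genes with the largest spread within groups, where open points stand for 0 counts and are drawn at the foot of the axis. Control 3 stands out for choroid plexus markers, at 3.99, and for *Epha1*, *Robo3* and *Sema3b*.

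Genes that act with these families, from co-receptors to the enzymes that move actin, were examined as a list of 79. All were tested, and 7 were higher and 3 were lower, or 8.86% and 3.8%, beside 5.1% and 7.15% of all genes. The list was chosen with earlier results of these data known, so these shares are not an independent comparison. The median log2FC was 0.05. The higher genes included *Sh3bp1* (log2FC 0.82), *Tiam2* (0.81), *Ngef*, the ephexin that binds Eph receptors (0.70), and *Trio* (0.32), which acts downstream of Dcc. The rest were *Dpysl4* (0.48) of the collapsin response mediators and the PDZ proteins *Gipc1* (0.42), which binds neuropilin 1, and *Pick1* (0.35). The groups of *Trio*, *Gipc1* and *Pick1* did not overlap, and those of the others did. In normalized CPM, library C lay below control 1 for *Tiam2* (28.4 against 28.7), *Ngef* (177 against 190) and *Dpysl4* (27.8 against 28.7). For *Sh3bp1* it lay below control 3 (4.46 against 4.72).

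The lower genes were the adhesion molecule *Chl1* (-0.42), the Ras GTPase activator *Rasa1* (-0.34) and the Rac exchange factor *Dock1* (-0.32). *Gipc1* measured 32, 29.8 and 37.1 normalized CPM in controls and 45.2, 47.9 and 39.5 in OE mice. *Chl1* measured 87.1, 122 and 99.9 in controls and 67.7, 75.4 and 87.1 in OE mice, so that library C and control 1 had nearly the same value. No gene of the list had an adjusted P under 0.05 in edgeR (lowest 0.295, with 17 at unadjusted P under 0.05) or in DESeq2. Of all 21844 genes, 3304 had an unadjusted P under 0.05 in edgeR. Only *Tiam2* passed after GC correction. Leaving out control 2, library A or library B left 2, 3 and 2 higher genes, and leaving out control 3, library A or library B left 1, 0 and 1 lower genes, against 5 without library C.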

How the data were processed

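RNA was extracted from brain tissue of 3 control and 3 *AP1AR-DT* OE mice, which the labels number as separate animals. By the paper's methods the authors mapped reads to GRCm38 with Bowtie2 and derived a whole-number count for each gene from StringTie coverage, and these raw counts were deposited. The submitters' processing notes instead name TopHat2 2.0.4, HTSeq, Cuffdiff, edgeR 2.6.12 and mm9, and the conflict could not be settled here. Low counts were most frequent at 4 (4922 values, against 2263 at 5), so a count need not be 1 read pair. The table also holds the authors' mean normalized count (a signal), log2 fold changes with errors, Wald score, P-values and adjusted P-values, all from the deposited comparison. None of these was used.

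Counts were tested in R 4.3.3 with edgeR 4.0.16 (filterByExpr, TMM factors, quasi-likelihood F-test, two-sided, Benjamini-Hochberg over 21844 genes). Thresholds were P under 0.05 and |log2FC| above 0.32. SE is |log2FC| over the square root of F. The spread within groups used log2 of normalized CPM plus 0.1. Level per kb used exon unions of GENCODE vM21, which held all 68 members and 52081 of the 52390 identifiers. GC content was that of the longest transcript, and its curve a natural spline with 5 degrees of freedom over 14013 genes, entered as offsets. The script was tested on simulated data. Alternatives were DESeq2 1.42.0, its size factors, no TMM factors, no filter, counts divided by 4, GC correction, and leaving out each library. Correction by mean GC over transcripts was chosen after seeing the data. Gene lists and members were chosen with earlier results of these data known. Values per mouse are given for members past the thresholds, the highest per kb of each family, the 5 with the largest spread within groups, and those without overlap and |log2FC| above 0.32. Other genes were named after their values were seen.

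Of 10 markers each, the calls (higher, lower) were 1 and 1 for excitatory neurons, 1 and 0 for GABA interneurons, 0 and 5 for thalamic, 0 and 7 for choroid plexus, 0 and 3 for oligodendrocyte, 0 and 1 for astrocyte, 4 and 0 for microglia and 2 and 0 for endothelial and pericyte lists. Of 9 hypothalamic markers tested, 0 and 5 were. Striatal, oligodendrocyte precursor and meningeal lists had 0. Of all genes tested, 5.1% were higher and 7.15% lower. Choroid plexus sums were 82.6, 79.2 and 4070 normalized CPM in controls 1 to 3, and 59.8 to 82.1 in OE mice. Thalamic sums were 364, 537 and 1270 in controls and 288 to 398 in OE mice. Hypothalamic sums were 8.36, 672 and 81.1 in controls and 13.3 to 31.2 in OE mice. The lower calls of these lists thus came with high values in single controls.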

Additional observations from a re-analysis of the deposited data

How the results depend on the processing

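With 3 mice a group, no guidance gene reached an adjusted P under 0.05 in edgeR under any setting, and 2 did in DESeq2. Of all 21844 genes, 6 did in the main edgeR fit and 308 in DESeq2. GC correction left 3 higher and 3 lower guidance genes and a median log2FC of -0.03. The correction by mean GC over transcripts, chosen after seeing the data, left 3 higher and 4 lower genes and a median of 0.02. Of the 79 partner genes, these corrections left 1 and 2 higher, and 0 lower in both. Partner genes lower were 1 with DESeq2 size factors, 1 with library totals and 1 with no filter. When each library was left out in turn, the guidance genes higher ranged from 5 to 13, those lower from 0 to 7, their median log2FC from 0.03 to 0.11, the partner genes higher from 2 to 8 and those lower from 0 to 5. The lowest counts came without library A or B for guidance genes. The matching ranges over all genes were not counted. Over 27 named guidance genes, of which 14 were called, and 13 alternatives, 350 values were obtained. Of these, 287 stayed on the same side of the thresholds, 58 lost the call and 5 gained one. All 58 losses fell on the 14 called genes, since only these could lose a call. No called gene changed direction (0 values), while 16 values of uncalled genes changed sign. The cause of these shifts was not tested. The labels give no pairing of control and OE mice, so no paired analysis was run. Depth limits *Ntn5*, *Epha1* and *Efna4*, with 16, 92 and 103 counts over all libraries.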

Other observations

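Promoter windows were found in the RefSeq table for 59 of the 68 guidance genes, 75 windows in all, each of 300 bases. Their median GC content was 64.3%, beside 52.7% over 32851 windows of all genes. The letters GCGCNTGCGC, a strict form of the motif of the transcription factor NRF1, were searched on both strands. The NRF1 sites that the paper predicts in the human *NEGR1* promoter do not hold these letters, so the search would miss such sites. The letters were in 0 of the 75 guidance windows and in 1512 (4.60%) of all windows, which says only that these letters are not in these windows.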
